A study of Rattus norvegicus with 6 samples.

Results

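The small heat shock proteins described here are 5 genes, Hspb1, Cryab, Hspb8, Hspb6 and Hspb2, taken through every probe set of the array whose platform annotation names one of them and no other gene. They make 6 of the 31099 probe sets in the table, with 2 probe sets for Hspb8 and 1 for each of the others. The 5 genes were chosen by name with the difference between congenic and S arrays already known, so that difference is given here as a description and without a test. A filter on dim probe sets, set at the 40th percentile of the mean log2 value (a linear signal of about 25.0), left 18625 probe sets, and among them were 4 of the 6, from 4 of the 5 genes. The single probe set of Hspb2 and the dimmer one of Hspb8 lay below it.

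Small heat shock proteins share the alpha-crystallin domain. They bind unfolding proteins without using ATP, hold them in a soluble state and pass them on to the Hsp70 machinery for refolding or disposal. Heat shock factor 1 drives several of their genes under stress. In the kidney, Hspb1 and Cryab are known for their abundance in the hypertonic medulla, whereas Hspb6, Hspb8 and Hspb2 are best known from smooth, cardiac and skeletal muscle.

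Kidney RNA was compared between male congenic rats, in which a segment of chromosome 9 comes from the R strain and the rest of the genome is Dahl S, and male Dahl salt-sensitive (S) rats, the background strain itself. There were 6 rats of each strain, all with a shared birth date, given a diet with 2% salt from weaning at 30 days and killed at 53 days, and each cage held 1 rat of each strain. RNA of 2 rats went into each pool, and each of the 3 congenic and 3 S pools was run on 1 Affymetrix Rat Genome 230 2.0 array. The congenic rats stand for 1 congenic strain, and an array shows the mean of a pair of animals rather than single rats. Every rat was on the salt-rich diet, so no effect of the diet can be read from these arrays. The RNA was from whole kidney, in which fewer cells of a type and less RNA per cell cannot be told apart. By the rat assembly GRCr8, Hspb6 lies on chromosome 1, Cryab and Hspb2 on chromosome 8, and Hspb1 and Hspb8 on chromosome 12, so none of the 5 is on the chromosome that differs between the strains.

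Some arrays stood apart. Congenic array 1 had a summed signal of 9413 over 6 liver markers, against 105 to 196 on the other arrays, and congenic array 3 had 5506 over 5 adrenal markers, against 128 to 142. The actin control probe sets had a 3' to 5' ratio, a measure that increases as RNA degrades, of 6.15, 6.64 and 7.17 on congenic arrays 1, 2 and 3 and 9.42, 8.13 and 6.54 on S arrays 1, 2 and 3. The same ratio for Gapdh was 1.63, 1.62 and 1.68 on the congenic arrays and 1.77, 1.66 and 1.505 on the S arrays. Kidney identity was clear on all 6, with Umod, the defining transcript of the thick ascending limb, at signals of 6589 to 7010.0 on congenic arrays and 6576 to 6774 on S arrays.

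Hspb1 and Cryab had higher signals on every congenic array than on any S array. Hspb6 and Hspb8 had nearly equal means in the strains and overlapping arrays, and Hspb2 was dim on all 6 arrays. The values follow gene by gene, as linear signals, with log2 differences of congenic minus S on the log2(signal + 16) scale.

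Hspb1, known as Hsp25 in rodents, is a phosphorylated small heat shock protein that protects actin filaments. Its probe set 1367577_at had signals of 343, 455 and 379 on congenic arrays 1, 2 and 3, against 208, 280.4 and 330.3 on S arrays 1, 2 and 3. The groups did not overlap, but S array 3 came within 13.0 signal units of congenic array 1, less than the SD of either group. The means were 392 ± 57.2 in congenic and 273 ± 61.3 in S pools (SD, n = 3 each), a ratio of 1.44 and a log2 difference of 0.51 (SE 0.15). S array 1, which had the lowest Hspb1 signal, also had the highest actin ratio, 9.42. Over S arrays 1, 2 and 3 the Hspb1 signal rose as the actin ratio fell, from 9.42 to 8.13 and 6.54. The congenic arrays did not follow that order, with Hspb1 at 343, 455 and 379 for ratios of 6.15, 6.64 and 7.17. Without S array 1 the log2 difference was 0.34, but leaving out 1 array does not remove the differences in ratio. The part of RNA quality in the result was not tested.

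Cryab encodes alpha B-crystallin, which forms large assemblies and binds desmin filaments. Its probe set 1370026_at had signals of 2585, 2822 and 2857 on the congenic arrays, against 2196, 2234 and 2268 on the S arrays. The groups lay 318 signal units apart, which is more than the SD of either, and the S arrays in particular lay close together. The means were 2755 ± 148 in congenic and 2233 ± 35.6 in S pools (SD, n = 3 each), a ratio of 1.23 and a log2 difference of 0.30 (SE 0.053). With each array left out in turn the log2 difference stayed between 0.27 and 0.34. S array 1, with the highest actin and Gapdh ratios, had the lowest Cryab signal, and S array 3, with the lowest Gapdh ratio, had the highest of the S arrays. The part of RNA quality in the Cryab difference was not tested.

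Hspb6, or Hsp20, is a small heat shock protein of smooth and cardiac muscle that is phosphorylated by cyclic nucleotide-dependent kinases during relaxation. Its probe set 1387898_at had signals of 186, 230.4 and 199.9 on the congenic arrays, against 209, 186 and 195 on the S arrays. The groups overlapped along most of their range, and only congenic array 2 lay above all S arrays. The means were 206 ± 22.5 in congenic and 197 ± 11.9 in S pools (SD, n = 3 each), a log2 difference of 0.057 (SE 0.093). Without congenic array 2 the log2 difference was -0.022.

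Hspb8, or Hsp22, works in a complex with Bag3 that hands misfolded proteins to autophagy. Its brighter probe set, 1388721_at, had signals of 60.85, 53.5 and 64.2 on the congenic arrays, against 70.3, 55.8 and 47.2 on the S arrays. The S arrays held both the highest and the lowest value, so the congenic values lay wholly inside the S range. The means were 59.5 ± 5.47 in congenic and 57.8 ± 11.7 in S pools (SD, n = 3 each), a log2 difference of 0.043 (SE 0.14). The second probe set, 1387282_at, was below the filter, with signals of 11.2, 2.81 and 7.87 on the congenic arrays and 8.74, 24.3 and 9.25 on the S arrays. It gave a log2 difference of -0.35 (SE 0.22, in a fit without the filter), the opposite sign to the brighter one, and 1 S array carried most of it.

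Hspb2 was first described as a binding protein of the myotonic dystrophy kinase and is abundant in muscle. Its probe set 1370018_at had signals of 14.5, 17.7 and 19.1 on the congenic arrays, against 23.0, 15.5 and 18.9 on the S arrays. All 6 values lay under the filter, with overlapping groups and a log2 difference of -0.084 (SE 0.14, in a fit without the filter). No presence calls were used, so whether Hspb2 was detected in kidney cannot be said from these signals. By GRCr8, Hspb2 and Cryab are direct neighbours with overlapping gene records, and of this pair Cryab alone had separate groups.

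**Figure D1:**
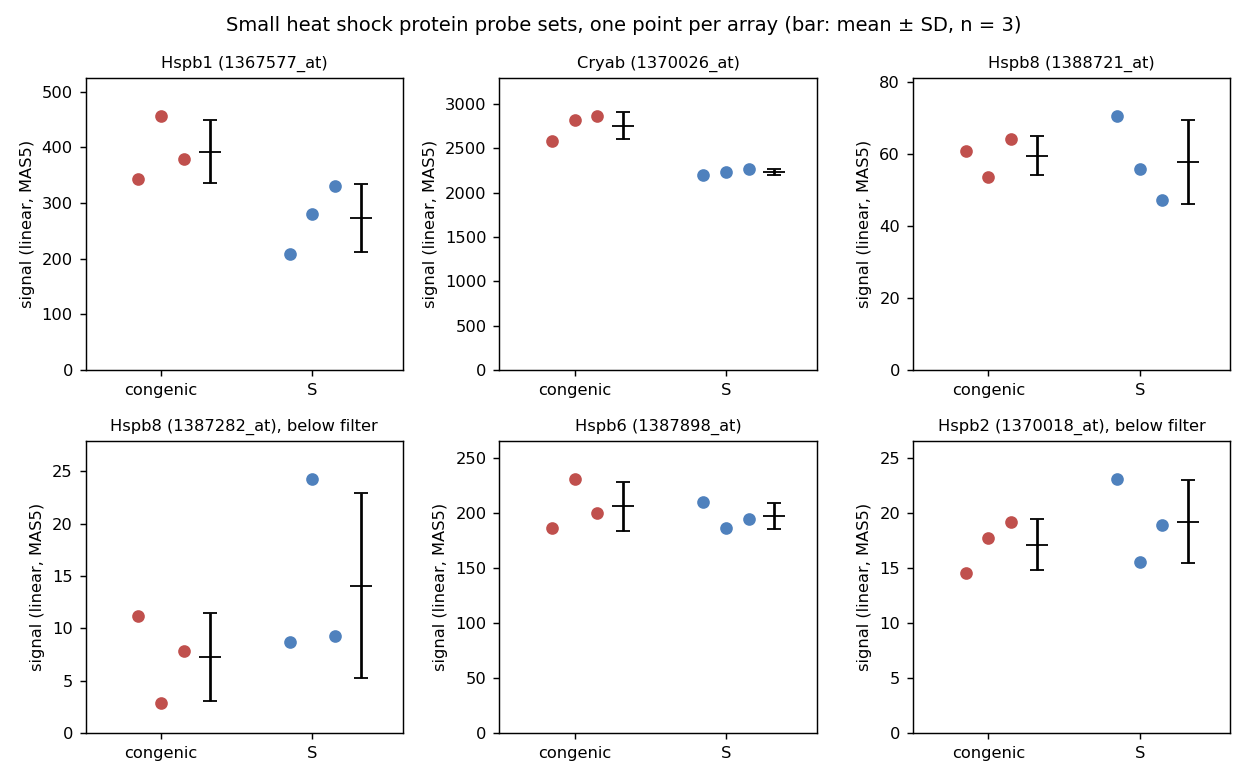
Linear signal of the 6 probe sets of small heat shock protein genes, by group, with 1 point per array and the mean ± SD of 3 arrays as a bar; each panel starts at 0 and has its own scale. The congenic points lie above all S points for Hspb1 and Cryab, and the ranges of the groups overlap in the other 4 panels.

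Over all 18625 probe sets past the filter, limma with Benjamini-Hochberg adjustment called 0 (0%) at the 0.05 threshold, and the smallest adjusted p was 0.145. At an unadjusted p under 0.05 there were 1232 (6.61%). The groups did not overlap for 12.5% of probe sets, with congenic arrays higher for 5.71% and lower for 6.79%. Of the 4 probe sets of small heat shock proteins past the filter, 2 had separate groups with congenic higher and 0 with congenic lower. The choice of the genes used this contrast, so nothing is read from that count against the background. The median log2 difference was -0.0036 over all tested probe sets, of which 48.7% were positive.

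The 5 genes did not vary as one group across arrays. On the log2(signal + 16) scale and over the 6 arrays, Hspb1 and Cryab had a Pearson correlation of 0.84 and a Spearman correlation of 0.94. The Pearson value was 0.87 without the pair of arrays farthest from the Hspb1 median and 0.59 for deviations from the group means. Hspb1 and Hspb8 had a Pearson correlation of -0.49 and a Spearman correlation of -0.31, and the Pearson value was -0.95 for the deviations. It was 0.45 without the pair of arrays farthest from the Hspb1 median, so the negative sign over the 6 arrays rested on those. Hspb6 and Hspb2 correlated at 0.48, at 0.93 without the pair of arrays farthest from the Hspb6 median, and at 0.66 for the deviations. These were 5 genes in 10 pairs on the same 6 arrays, and no p is given. Pools, array scaling and RNA quality are shared by all genes of an array.

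The genes whose pattern over the 6 arrays was most like each member were named by the highest Pearson correlation among 14035 probe sets with 1 symbol past the filter. For Hspb1 these were Ndufs6, Nexn and Tgoln2, at 0.995, 0.994 and 0.994, and for Cryab they were Mef2a, Acot13 and Zfx, at 0.992, 0.986 and 0.985. For these 6 genes the congenic arrays were higher without overlap, as they were for Hspb1 and Cryab. That follows from how they were picked, by likeness to genes whose groups were separate. Mef2a, a transcription factor known from muscle, had signals of 78.1, 85.0 and 91.6 on the congenic arrays and 60.5, 59.6 and 62.7 on the S arrays. For Hspb8 they were Snx15, Ccdc115 and Akr1a1, for Hspb6 Creld1, Myo15b and Ssc4d, and for Hspb2 Ehd4, Hnrnpl and Fbxo7, at 0.978 to 0.996. The groups overlapped for these 9 genes, which were likewise picked for likeness to genes whose groups overlapped. Of the candidates, 67 probe sets reached 0.95 with Hspb1, 31 with Cryab, 31 with Hspb8, 23 with Hspb6 and 28 with Hspb2. The lists for the 5 genes were the same with a pseudocount of 1.

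The stretch around the annotated start is shown for the 3 members in the RefSeq promoter table of GRCr8, since heat shock factor 1 acts through repeated GAA units there. Each line gives 250 bases before and 50 bases after the start, 5′ to 3′ on the gene's strand, with capitals on every match to GAANNTTC or TTCNNGAA, the inward and outward pairs of the heat shock element.
Hspb1 (chr12:26432252-26432551, minus strand): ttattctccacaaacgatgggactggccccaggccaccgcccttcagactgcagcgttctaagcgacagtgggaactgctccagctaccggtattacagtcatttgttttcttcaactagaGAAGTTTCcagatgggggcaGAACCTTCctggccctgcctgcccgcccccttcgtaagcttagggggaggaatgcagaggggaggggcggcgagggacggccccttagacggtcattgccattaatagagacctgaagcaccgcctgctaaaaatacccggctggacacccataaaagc
Hspb6 (chr1:94934122-94934421, plus strand): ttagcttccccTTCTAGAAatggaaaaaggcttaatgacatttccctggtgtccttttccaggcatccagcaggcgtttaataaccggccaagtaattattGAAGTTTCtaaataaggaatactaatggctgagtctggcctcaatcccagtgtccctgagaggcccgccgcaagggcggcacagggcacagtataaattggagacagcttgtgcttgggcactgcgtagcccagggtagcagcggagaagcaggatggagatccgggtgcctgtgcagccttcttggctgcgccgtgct
Hspb8 (chr12:45837058-45837357, plus strand): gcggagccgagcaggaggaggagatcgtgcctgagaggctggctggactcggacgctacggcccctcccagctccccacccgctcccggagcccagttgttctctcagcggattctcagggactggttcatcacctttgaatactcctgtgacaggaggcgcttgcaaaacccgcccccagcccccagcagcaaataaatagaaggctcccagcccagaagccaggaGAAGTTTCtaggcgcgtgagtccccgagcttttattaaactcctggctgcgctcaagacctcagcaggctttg
Promoter entries for Cryab and Hspb2 were not used here.

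All 3 windows held the pair GAANNTTC, which reads the same on both strands. Hspb1 had it at -129 to -122 and again at -109 to -102, Hspb6 at -149 to -142 and Hspb8 at -23 to -16, counted from the start with no position 0. The letters GAAGTTTC stood in all 3 genes. The share with GAANNTTC was 8.59% among all 33469 RefSeq promoters and 5.87% among the 9854 promoters of genes past the filter. The outward pair TTCNNGAA was found in Hspb6 alone, at -239 to -232, and in 8.77% of all promoters and 6.90% of those of genes past the filter. A run of 3 alternating units was found in none of the 3 and in 0.798% of all promoters and 0.467% of those of genes past the filter. No match overlapped another, although an E-box of Hspb1 (CANNTG, at -121 to -116) began at the base after its first pair.

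Of the general promoter motifs, the GC box GGGCGG on either strand was found in all 3, at 3 places in Hspb1 and at 1 each in Hspb6 and Hspb8, against 33.1% of all promoters and 61.0% of those of genes past the filter. The TATA box TATAAA was found in Hspb6 alone, at -58 to -53, against 14.2% and 6.90%. The E-box CANNTG was found in Hspb1 and Hspb8, against 72.1% and 63.2%. The pair GAANNTTC was thus present in Hspb1, whose groups were separate, and in Hspb6 and Hspb8, whose groups overlapped. Among chaperone partner genes, windows of the same length held 4 matches to either pair in Hspa8, 3 in Hsph1, 3 in Dnaja1, 2 in Dnajb1, 1 in Bag3 and 0 in Hspa1a, Hspa4, Bag1, Stub1 and Sqstm1. The family genes Hspb3, Hspb7, Hspb9 and Cryaa had 0 as well. A match describes the letters alone, and a count of 0 says only that the window held no exact match. Inexact copies and sites outside the window were not searched, so a 0, as for Hspa1a, does not show that heat shock elements are absent.

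**Figure D2:**
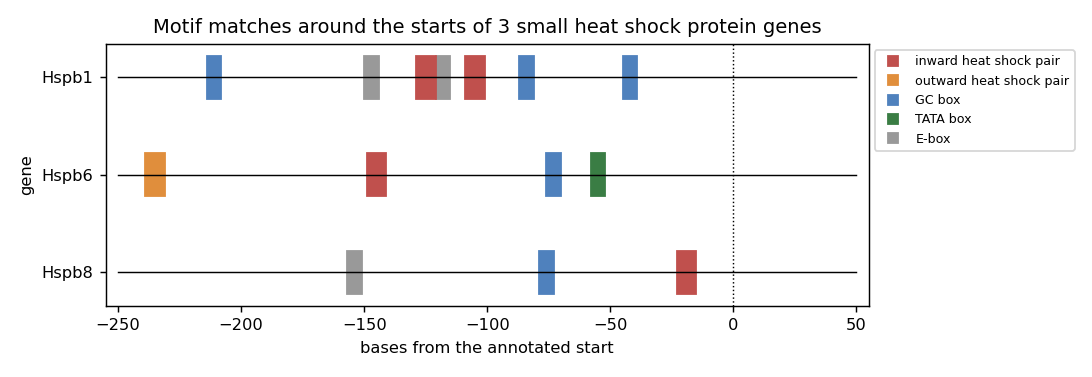
Positions of motif matches, in bases from the annotated start (dotted line), in the windows of Hspb1, Hspb6 and Hspb8; boxes are drawn to scale and coloured by motif. All 3 genes hold an inward heat shock pair, 2 of them in Hspb1, and Hspb6 alone holds an outward pair and a TATA box.

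The remaining genes of the family were nearly all dim. Of Hspb3, Hspb7, Hspb9, Odf1 and Cryaa, all 5 had a probe set and 1, Hspb7, passed the filter. Hspb7, a small heat shock protein of heart and muscle, had signals of 69.3, 117 and 66.7 on the congenic arrays and 75.5, 92.4 and 65.4 on the S arrays, with overlapping groups (log2 difference 0.074, SE 0.18, limma adjusted p = 0.951). Cryaa, the alpha A-crystallin of the lens, had signals of 4.82, 19.8 and 22.1 on the congenic arrays and 12.9, 16.9 and 20.3 on the S arrays. Hspb3, Hspb9 and the sperm tail gene Odf1 had signals of at most 10.7, 20.3 and 15.8 on the congenic arrays and 14.0, 20.2 and 7.87 on the S arrays. Cryab was thus bright and separate between the strains, while the other alpha-crystallin gene stayed below the filter.

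The partners that take over substrates from small heat shock proteins did not move as one group. Of 12 genes listed, 10 had a probe set of their own and all 10 passed the filter, 6 with a positive and 4 with a negative log2 difference and a median of 0.088. Over all 10648 genes past the filter the median was -0.0071 and 47.2% were positive. None of the 10 passed limma's threshold adjusted over all probe sets, and at an unadjusted p under 0.05 there were 4 higher (Hspa1a, Dnajb1, Hsph1 and Dnaja1) and 1 lower (Stub1), beside 6.61% of all probe sets in either direction. The groups were separate for 5 genes with congenic higher and for 1 with congenic lower, beside 5.71% and 6.79% of all probe sets. This list and those below were chosen with earlier results of these data known, so nothing is read from such counts against the background. Probe sets for Hspa8 and Hsp90aa1 carry several symbols and were not named.

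Among these partners, the inducible Hsp70 gene Hspa1a had signals of 981, 1166 and 891 on the congenic arrays, against 559.9, 630.0 and 696 on the S arrays. Its log2 difference was 0.67 (SE 0.10, limma adjusted p = 0.178), and whether its probes also read the near-identical Hspa1b was not tested. Dnajb1, the Hsp40 that loads substrates onto Hsp70, had a log2 difference of 0.49 (SE 0.096). Bag3, the scaffold that joins Hspb8 and Hsp70, had signals of 279, 289.6 and 285 on the congenic arrays, against 266, 263 and 268 on the S arrays. The Bag3 groups were separate but close (log2 difference 0.095, SE 0.067). Its correlation over the 6 arrays was 0.98 with Cryab, 0.84 with Hspb1, 0.53 with Hspb6, 0.022 with Hspb8 and -0.18 with Hspb2. The groups of Bag3, Cryab and Hspb1 were all separate in the same direction, which raises such a correlation. Stub1, the ubiquitin ligase CHIP that sends Hsp70 substrates to the proteasome, ran the other way, at 249, 235 and 226 on the congenic arrays against 297, 278 and 272 on the S arrays. Its log2 difference was -0.24 (SE 0.075, limma adjusted p = 0.701). Hspa4, an Hsp110-type exchange factor, had a log2 difference of -0.10.

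The heat shock factors themselves had overlapping groups, whereas 6 of the 7 other genes on their list had separate ones with congenic higher, beside 5.71% of all probe sets. These 6 were not factors but chaperones or co-chaperones, namely Chordc1, Ahsa1, Fkbp4, Stip1, Hspd1 and Hspe1, which assist Hsp90 or fold proteins in mitochondria. Hspd1 and Hspe1 lie on chromosome 9 in GRCr8, and whether they lie in the introgressed segment was not analysed here. All 9 listed genes passed the filter, 7 with a positive log2 difference, with a median of 0.14. None passed limma's threshold adjusted over all probe sets. The number higher at an unadjusted p under 0.05 was 6, beside 6.61% of all probe sets in either direction. This list too was chosen with earlier results known, so nothing is read from its counts against the background. Hsf1, the factor that drives heat shock genes, had signals of 91.8, 109 and 81.1 on the congenic arrays and 82.9, 113 and 89.9 on the S arrays, a log2 difference of -0.015. Hsf2 had a log2 difference of -0.080. Chordc1, an Hsp90 co-chaperone, had signals of 659, 726 and 665 on the congenic arrays and 478, 562 and 538 on the S arrays, a log2 difference of 0.37 (SE 0.075). Fkbp4, another Hsp90 co-chaperone, had a log2 difference of 0.34 (SE 0.11). S array 1 had the lowest signal for 5 of the 9 genes, as it did for Hspb1 and Cryab, and for 4 of the 10 partners.

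**Figure D3:**
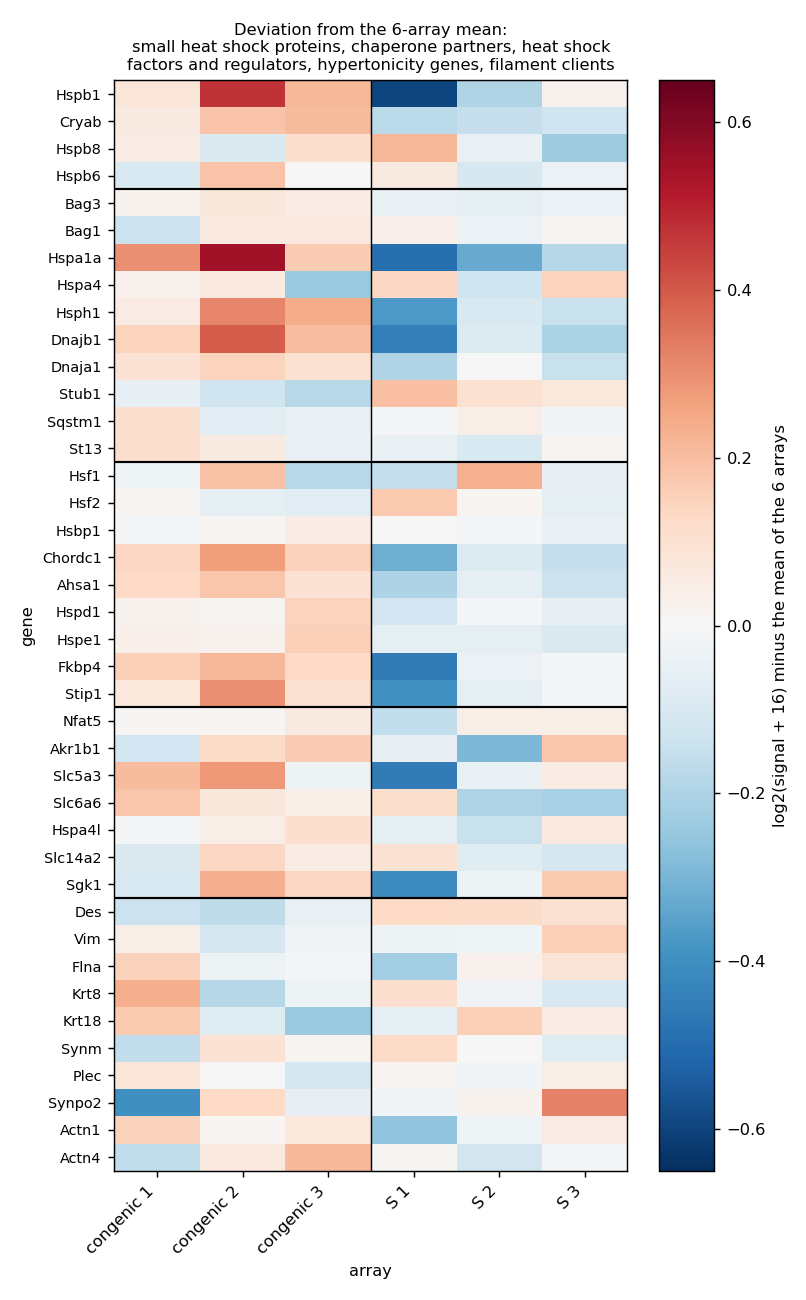
Deviation of log2(signal + 16) from the mean of the 6 arrays for the 4 small heat shock protein genes past the filter (top block) and for the chaperone partners, the heat shock factors and their regulators, the hypertonicity genes and the filament clients (blocks below), with congenic arrays on the left. The Hspb1 row resembles those of Hspa1a, Hsph1, Dnajb1, Chordc1 and Stip1, with S array 1 lowest and congenic array 2 highest, whereas the Hspb8 and Hspb6 rows do not. The same arrays were lowest and highest in further rows, among them Fkbp4 and, in the hypertonicity block, Slc5a3.

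The p38 kinase pathway phosphorylates Hspb1 and thereby breaks up its large assemblies. Of 11 listed genes 9 passed the filter, 4 with a positive and 5 with a negative log2 difference, with a median of -0.031. Without S array 2 the median was 0.012. None passed limma's threshold adjusted over all probe sets. At an unadjusted p under 0.05, 1 gene was higher, beside 6.61% of all probe sets in either direction. That gene was Mapkapk2, the kinase that acts on Hspb1 directly, with signals of 983, 743 and 1083 on the congenic arrays and 741, 780.1 and 785 on the S arrays. Congenic array 2, which had the highest Hspb1 signal, had the lowest Mapkapk2 signal of its group, within the S range. The groups were separate for Map2k3 alone, with congenic lower (log2 difference -0.100), beside 6.79% of all probe sets. Mapkapk3 had a log2 difference of 0.35 (SE 0.19), Map2k6 of -0.24 (SE 0.15) and Mapk13 of -0.11 (SE 0.17). Phosphorylation itself was not measured.

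Genes of filaments that small heat shock proteins bind gave a median of -0.028 over 10 tested of 12 listed, 4 positive and 6 negative. None passed limma's threshold adjusted over all probe sets. At an unadjusted p under 0.05, 1 gene was lower, beside 6.61% of all probe sets in either direction. That gene was Des, which encodes desmin, the filament protein bound by Cryab, with signals of 61.4, 60.1 and 66.5 on the congenic arrays against 77.4, 76.6 and 75.5 on the S arrays. The Des groups were separate, opposite in direction to Cryab (log2 difference -0.23, SE 0.099, limma adjusted p = 0.746). Separate groups with congenic lower were found for 6.79% of all probe sets. Des lies on chromosome 9 in GRCr8, and whether it lies in the introgressed segment was not analysed here. Synpo2 had a log2 difference of -0.22 (SE 0.15), and the actinin genes Actn1 and Actn4 of 0.16 and 0.080.

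Hypertonicity induces Cryab and Hspb1 in cultured kidney cells, and the factor Nfat5 drives osmolyte transporter genes in the same setting. All 7 tested of 8 listed hypertonicity genes had a positive log2 difference, beside 47.2% of all genes past the filter, with a median of 0.11. Without congenic array 3 the median was 0.064. None passed limma's threshold adjusted over all probe sets. At an unadjusted p under 0.05, 2 were higher, beside 6.61% of all probe sets in either direction. The groups were separate for 0 of the 7, beside 12.5% of all probe sets in either direction. Slc5a3, the myo-inositol transporter, had signals of 2439, 2567 and 2059 on the congenic arrays and 1537, 2043 and 2182 on the S arrays (log2 difference 0.30, SE 0.12). The taurine transporter Slc6a6 had a log2 difference of 0.20 (SE 0.086), the urea transporter Slc14a2 of 0.061 and Nfat5 of 0.054. The 7 genes' summed signal was 8634 to 9254 on congenic arrays and 7261 to 8545 on S arrays, separate although the single genes were not. The sum adds linear signals, so bright genes such as Slc5a3 and Nfat5 mainly set it. Hspa4l, with a mean signal of 66.9 on the congenic arrays, hardly counted. Nothing is read from the separate sums about the list as a whole.

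**Figure D4:**
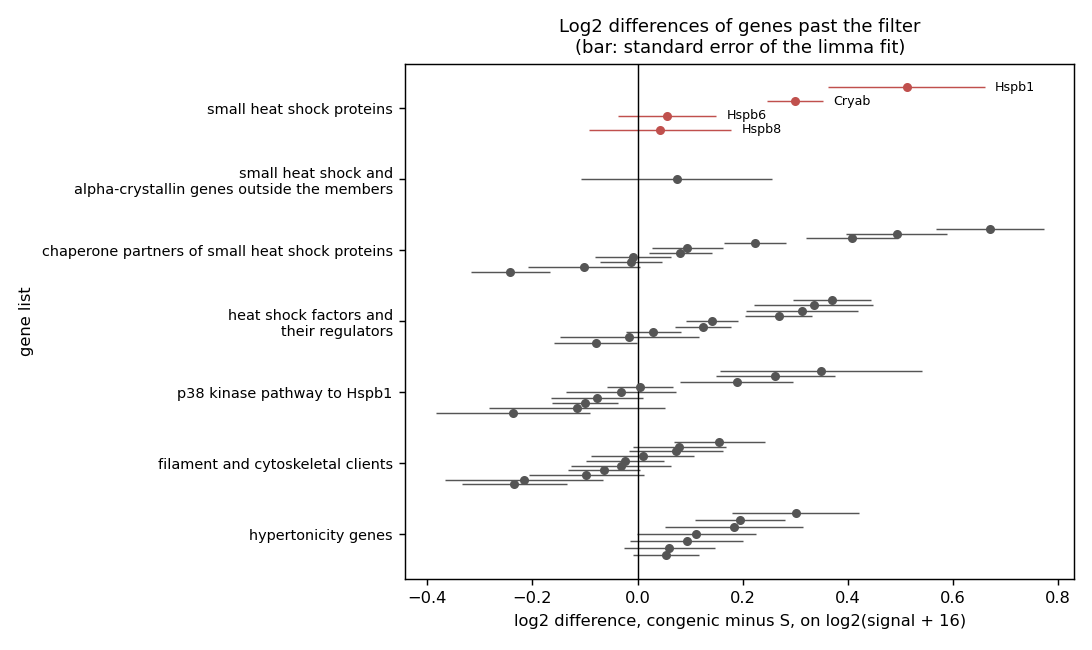
Log2 difference, congenic minus S, of each gene past the filter, with the standard error of the limma fit as a bar, for the small heat shock proteins (red) and for 6 gene lists (grey). Hspb1 and Cryab lie at 0.51 and 0.30, Hspb6 and Hspb8 near 0, and all 7 hypertonicity genes lie above 0.

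Markers of the cells that could carry these transcripts were set beside the members. Inner medulla and collecting duct markers, of which all 6 passed the filter, had a summed signal of 6045 to 7013 on congenic arrays and 5378 to 6058 on S arrays. The sum was highest on congenic array 2 and lowest on S array 1, as was Hspb1. Of the 6, Aqp3 and Aqp2, the collecting duct water channels, had separate groups with congenic higher, beside 5.71% of all probe sets. Aqp3 had signals of 1244, 1564 and 1242 on the congenic arrays and 845, 1035 and 1121 on the S arrays. The groups overlapped for the other 4, with log2 differences of 0.21 for Aqp4, 0.0043 for Avpr2, -0.021 for Fxyd4 and -0.070 for Hsd11b2. The 4 thick ascending limb markers summed to 11390.4 to 12138 on congenic arrays and 10808 to 11282 on S arrays. Taken singly, all 4 had overlapping groups. Their log2 differences were 0.26 for Kcnj1, 0.13 for Slc12a1, 0.026 for Umod and -0.18 for Cldn16. The part of these cell types in the Hspb1 and Cryab differences was not tested.

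Of 7 smooth muscle markers, which bear on Hspb6, Hspb8 and Hspb2, 5 passed the filter. All 7 together summed to 681 to 767 on congenic arrays and 664 to 861 on S arrays. The groups of the sum thus overlapped, as they did for Hspb6, Hspb8 and Hspb2. Myh11, the smooth muscle myosin, had signals of 204, 219.6 and 177 on the congenic arrays and 208, 256 and 281 on the S arrays. Acta2, the smooth muscle actin, ran the other way, at 101, 125 and 85.7 on the congenic arrays and 81.7, 78.0 and 101 on the S arrays. Of the skeletal muscle markers 5 of 6 were below the filter, with Ckm, the muscle creatine kinase, at 2.73 to 7.40 on congenic arrays and 1.99 to 5.17 on S arrays. The one above it, the troponin gene Tnni2, had signals of 44.2, 29.2 and 33.6 on the congenic arrays and 20.6, 9.65 and 33.1 on the S arrays, with overlapping groups (log2 difference 0.52). The 6 markers summed to 65.9 to 92.3 on congenic arrays and 47.4 to 74.1 on S arrays.

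Urothelium markers had negative log2 differences for 4 of 5 tested genes, with a median of -0.29, where 47.2% of all genes past the filter were positive. Upk1b and Krt19 had separate groups with congenic lower, beside 6.79% of all probe sets. The 6 measured summed to 1245 to 1360.2 on congenic arrays and 1349 to 1422 on S arrays. All 5 tested fat markers had negative log2 differences, beside the same 47.2% of genes positive, with a median of -0.18. The 6 fat markers measured summed to 1225 to 1849 on congenic arrays and 1514 to 2018 on S arrays. The part of these tissues in the differences of Hspb1 and Cryab was not tested. Liver and adrenal transcripts were high on congenic arrays 1 and 3, on which Hspb1 and Cryab were also above all S arrays. Against the S arrays, congenic array 2 alone, which had neither, gave log2 differences of 0.73 for Hspb1, 0.34 for Cryab, 0.21 for Hspb6 and -0.075 for Hspb8. The part of liver and adrenal tissue in the results was not tested.

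**Figure D5:**
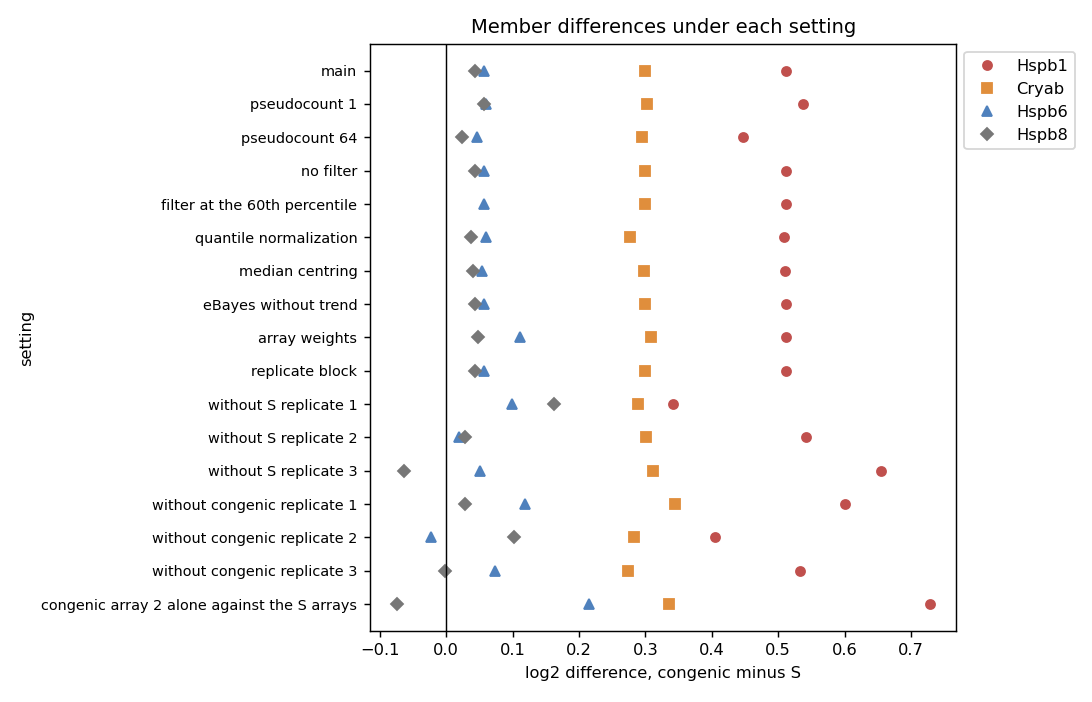
Log2 difference, congenic minus S, of Hspb1, Cryab, Hspb6 and Hspb8 under the chosen setting (top row, main) and each alternative but the mean over probe sets. Hspb1 and Cryab stay between 0.34 and 0.73 and between 0.27 and 0.34, while Hspb6 and Hspb8 lie on both sides of 0; Hspb8 was below the filter at the 60th percentile and has no point there.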

How the data were processed

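The deposited values were intensities, 1 linear MAS5 signal per probe set, as named in the submitters' processing notes. Neither the version of MAS5 nor its target level was given in the sources used. The authors' scaling left a trimmed mean signal of 150.05 on every array, so a general change of all transcripts is hidden. The number of arrays limits the precision (median SE of a log2 difference 0.11).

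Of 31099 probe sets, 57 controls were left out. Of the rest 20832 had 1 gene symbol, 436 several and 9774 none, and 20764 of the first were matched by gene ID to RefSeq's GRCr8 table, used for symbols, chromosomes and neighbours. RefSeq promoters of that build covered 3 of the 5 members. Values were taken as log2(signal + 16), which understates differences of dim probe sets. The filter at the 40th percentile left out 12417 probe sets, and the other 18625 went into limma 3.58.1 (lmFit and eBayes with trend, R 4.3.3, 2-sided, Benjamini-Hochberg over all). The fit was tested on simulated data. The probe set with the highest mean stood for a gene.

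The members and gene lists were chosen with earlier results of these data known. Named by rule were all member probe sets, the 3 genes most correlated with each member, and the 2 highest and 2 lowest log2 differences of each pathway list. Bag3, Hsph1, Dnaja1, Map2k3, Stip1, Ahsa1, Hspd1, Hspe1, the dim family genes, the genes whose promoters are mentioned and the cell type markers were named after their values were seen. Alternatives were pseudocounts of 1 and 64, no filter or the 60th percentile, quantile or median normalization, eBayes without trend, array weights, a replicate block, each array left out, congenic array 2 alone, and the mean over a gene's probe sets. Array numbers were not taken to pair the pools, since the labels do not say which pools shared cages. Same-numbered arrays' deviations from their group means correlated at 0.043, 0.022 and 0.017, which cannot settle whether the pools were paired.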

Additional observations from a re-analysis of the deposited data

How the results depend on the processing

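Under the 16 alternatives run for each, Hspb1 and Cryab kept a positive log2 difference and moved by less than the spread between arrays. The filter settings, eBayes without trend and the replicate block cannot change a single gene's log2 difference here, so they say nothing about it. With each array left out in turn Hspb1 ran from 0.34 (without S array 1) to 0.65 and Cryab from 0.27 to 0.34. Hspb6 ran from -0.022 to 0.12 and Hspb8 from -0.063 to 0.16, and both changed sign, Hspb6 under 1 alternative and Hspb8 under 4. With congenic array 2 alone against the S arrays Hspb1 was 0.73, Hspb6 moved to 0.21, Hspb7, the one tested gene of the remaining family, to 0.52, and the median of the chaperone partners to 0.11. With both probe sets averaged, Hspb8 moved to -0.15. With the filter at the 60th percentile the p38 median moved to 0.097, because fewer genes were tested. With single arrays left out the p38 median ran from -0.066 to 0.012 and the hypertonicity median from 0.064 to 0.15, and the median ran from 0.071 to 0.11 for the chaperone partners and from -0.070 to -0.0045 for the filament genes. The cause was not tested for the others. The number of probe sets called by limma ran from 0 to 3, with 3 probe sets of no symbol passing without S array 3 (adjusted p = 0.0432) and 1 without congenic array 2, St3gal2, named after its values were seen (log2 difference -1.01, adjusted p = 0.0264). With the replicate number as a block the number called was 0, and the smallest limma adjusted p was 0.056. The block cannot change the log2 differences of these balanced groups. It changes their SE, which was 0.10 for Hspb1 and 0.055 for Cryab.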
